A study of Rattus norvegicus with 24 samples.

Results

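The right ventricle (RV) and the left ventricle (LV) of the rat heart were compared over 3 conditions labelled HYP, CHF and CON. Every array of the series took part: 18 RV arrays (6 per condition) against 6 LV arrays (2 per condition). All 24 samples were of day 14, and each was hybridised on a 2-colour array together with a reference pool. Genes entered the comparison when they had a value on at least 12 RV and 5 LV arrays, which kept 2375 of the 4126 genes that the probes name. The difference was the mean of the RV values minus the mean of the LV values, with the 3 conditions given equal weight. The genes Hcn2, Myl9, Apoe and Igf1 were given with the comparison from earlier work on these data, so their values are a description.

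The series title names compensated and decompensated hypertrophy after monocrotaline, an alkaloid that damages lung vessels and thereby raises the load on the right side of the heart. From that title, HYP is taken here as the compensated state, CHF as the decompensated one and CON as control. The labels do not spell out the 3 abbreviations and give no strain, age, sex, dose or control treatment. They number the samples within each ventricle without saying that each number is another animal. The p-values therefore reflect the spread among these arrays alone, part or all of which could be technical. The labels give no batch. Any difference in handling or processing between the RV and the LV arrays would coincide with ventricle and could not be told apart from it.

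The ventricles differ in origin and in work. The RV wall and outflow tract arise largely from the second heart field and the LV from the first, and the RV pumps against the low resistance of the lung while the LV pumps against systemic pressure. Ventricular muscle is mostly cardiomyocyte by volume, with fibroblasts, endothelium, smooth muscle of the coronary vessels, macrophages and trapped blood between the myocytes. Myocyte RNA is rich in transcripts of the sarcomere, the sarcoplasmic reticulum and the mitochondrion.

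The deposited values are scores with an SD of 0.870 to 1.01 on each array, and every difference below is in these array SDs, a scale that cannot be turned into folds. A high score was read as more RNA in the ventricle sample than in the pool. This direction is not settled, since no source used here gives the dyes, and 13 pairs of arrays correlated below -0.3, the lowest at -0.530. Results are therefore also given with the sign turned on arrays. RV arrays correlated with each other at a median Pearson r of 0.262 across probes, which are not independent replicates. LV arrays did so at 0.423 and pairs of an RV and an LV array at 0.0651. CHF RV arrays 10 and 14 and HYP RV array 4 had the lowest median correlations with the other RV arrays. Array 10 correlated with the LV arrays at a median of 0.414 and with the other RV arrays at 0.0824, and array 14 did so at 0.502 and -0.110, against a median of 0.0355 between the remaining RV arrays and the LV arrays. HYP RV array 4 correlated at a median of -0.0321 with the other RV arrays and 0.192 with the LV arrays, the highest at 0.494. HYP LV array 5 correlated with the other LV arrays at a median of 0.326 and with the RV arrays at 0.196. The RV arrays did not sort by condition, and the highest correlation of all, 0.867, was between a HYP and a CHF array. The scores of LV arrays CHF 15, CON 21 and CON 22 had 2 decimals and all others had 3.

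**Figure D1:**
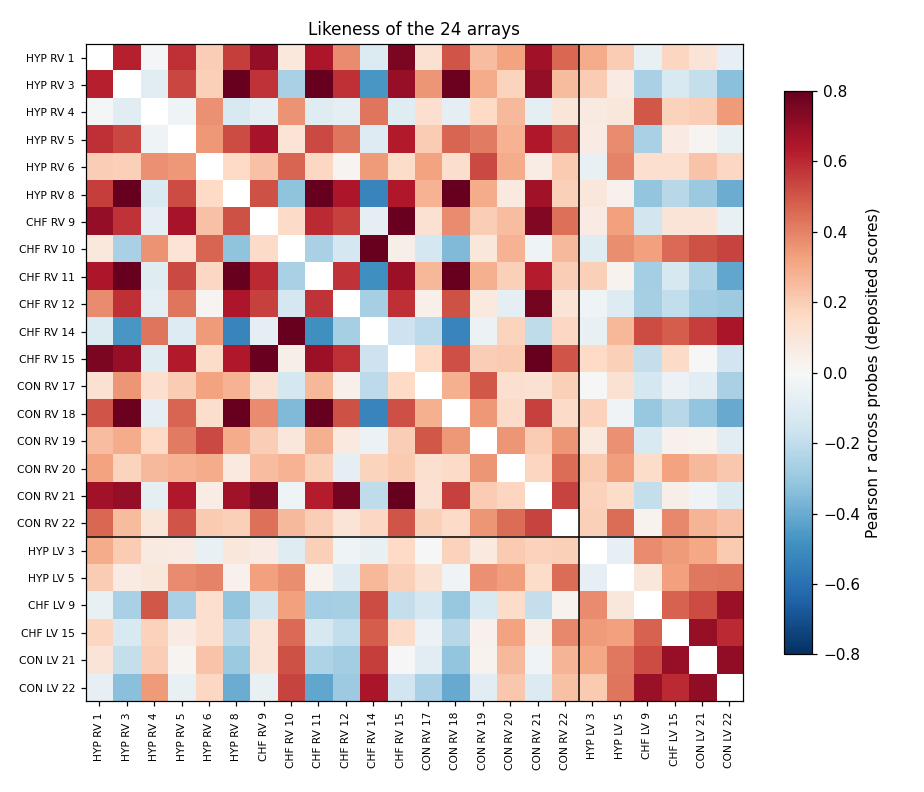
Pearson correlation across probes between every pair of the 24 arrays (colour scale, no unit), with RV arrays before and LV arrays after the black lines. The rows of CHF RV arrays 10 and 14 have medians of 0.414 and 0.502 against the LV arrays, where the remaining RV arrays have 0.0355.

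The comparison called 426 of 2375 genes (17.9%) at an adjusted p below 0.05 by limma. Of these, 271 (11.4%) were higher on RV arrays, by a median of 0.885 array SDs and a range of 0.481 to 2.18. The other 155 (6.53%) were higher on LV arrays, with a median RV minus LV difference of -1.20 and a range of -0.552 to -6.29. Over all genes tested the median difference was 0.0274. Scores left uncentred moved that median to 0.192, and then 75.4% of 517 calls were higher on RV arrays in place of 63.6%. Genes with all RV values on one side of all LV values numbered 13 (0.547%), and in every one of them RV was above LV: Hcn2, Tnni1, Gpx5, Apoe, Myl9, Msn, Fga, Ccn2, Phgdh, Reg3b, Cyp7a1, Npr2 and Col5a2. Phgdh, Reg3b, Cyp7a1 and Col5a2 are named here after their values were seen. No gene had all LV values above all RV values.

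Both the count and the direction depended on which arrays and signs were used. Without CHF RV arrays 10 and 14 there were 797 calls, which held all 426. Without HYP RV array 4 there were 604, and without all 3 arrays 934, which also held the 426. The joint omissions were chosen after the data were seen, for arrays with low correlations with the other RV arrays. Larger counts without them are therefore a description and not a test. With the sign turned on the 5 arrays that a rule on low correlations picks (CHF RV 10 and 14, CHF LV 9, CON LV 21 and 22) limma called 0 genes, and 275 genes had an unadjusted p below 0.05. In each pair below -0.3 the rule turns the array less like the RV arrays, so it picks LV arrays and RV arrays that resemble them. It sets some LV arrays against the others, so the 0 calls cannot tell a wrong sign from a real ventricle difference. Turning the sign on all 6 LV arrays gave 777 calls, and 114 of the 145 genes called both ways had the opposite sign. Without the 3 LV arrays of 2 decimals, 7 genes were called, all higher on RV arrays: Hcn2, Gpx5, Anxa1, Reg3b, Vav1, Tnni1 and Rtn1, of which Vav1 and Rtn1 are named after their values were seen. That omission removed both CON LV arrays, so no ventricle difference within CON remained. The fit was of condition and ventricle with no interaction, which gave 455 calls on all arrays. Leaving out 1 LV array gave 143 (CHF 9), 146 (CON 21), 149 (CON 22), 246 (HYP 3), 281 (CHF 15) or 364 (HYP 5) calls, and leaving out 1 RV array gave 311 to 622. The named genes whose call rested on 1 array are given below with that array and the difference without it, or with the range over such fits where there were more than 5.

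**Figure D2:**
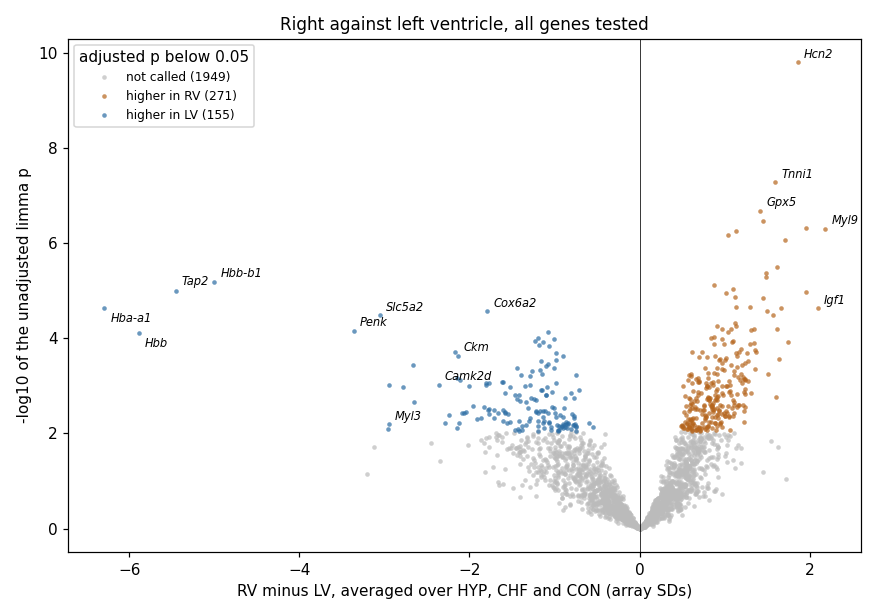
Each point is 1 of 2375 genes, with the RV minus LV difference in array SDs on the x axis and -log10 of the unadjusted limma p on the y axis, coloured by call at an adjusted p below 0.05. The 271 genes higher on RV arrays lie within 2.18 array SDs, while the 155 higher on LV arrays reach -6.29.

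Hcn2, a channel of the hyperpolarisation-activated pacemaker current, had the smallest p of all genes. Its RV scores ran from -0.414 through a median of 0.306 to 0.722. On the LV arrays it was at -1.81 and -1.53 (HYP), -1.26 and -1.49 (CHF) and -1.86 and -1.53 (CON). Every LV array was below every RV array. The difference was 1.86 ± 0.166 (SE, 18 RV and 6 LV arrays, adjusted p = 3.76e-07 by limma), with 1.91 in HYP, 1.68 in CHF and 1.99 in CON. It was 1.89 without CHF RV arrays 10 and 14, 0.276 with the sign turned on 5 arrays and -1.29 with the sign turned on all LV arrays. No other member of the pacemaker and conduction list was called, with 6 of its 12 genes on the array tested and a median of -0.142. With Hcn2 that made 16.7%, against 17.9% of all genes. None of 15 cardiac potassium channel genes was called (0%, against 17.9% of all genes). Without CHF RV arrays 10 and 14, 3 were, all on the LV side, where 797 of all 2375 genes were called. Of the 15, Kcne1, a beta subunit of the slow delayed rectifier channel, had the smallest p (-0.592 ± 0.226, adjusted p = 0.0714 by limma, and 0.0394 at a difference of -0.635 without those arrays). Gata4, a cardiac transcription factor, had the smallest p of 3 genes tested for chamber identity, at -0.762 ± 0.437 (adjusted p = 0.221 by limma). Without HYP RV array 4 and CHF RV arrays 10 and 14 it was at -1.11 (adjusted p = 0.0266 by limma). These omissions were chosen after the data were seen, for arrays unlike the other RV arrays, so the values without them are a description.

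Among genes of the sarcomere and myosin light chain lists, Tnni1 and Myl9 were higher on RV arrays. Myl3, Ckm and Ttn, all of adult heart muscle, were called higher on LV arrays, though the Ttn probes disagreed. Tnni1 encodes slow skeletal troponin I, the form that the fetal heart uses before cardiac troponin I replaces it. Its RV scores ran from -0.313 through 0.780 to 1.26, and its LV scores were -1.15 and -0.648 (HYP), -0.772 and -0.950 (CHF) and -1.21 and -1.08 (CON), with no overlap. The difference was 1.59 ± 0.197 (SE, adjusted p = 6.34e-05 by limma), and -0.337 with the sign turned on all LV arrays. Myl9 encodes a regulatory myosin light chain of smooth muscle and non-muscle cells. Its RV scores ran from -0.099 through 0.892 to 1.62, and the LV scores were -0.335 and -2.58 (HYP), -0.145 and -1.82 (CHF) and -1.74 and -1.66 (CON). The groups did not overlap, but the highest LV array (CHF 9) and the lowest RV array (HYP 5) nearly met. The difference of 2.18 ± 0.311 (SE, adjusted p = 0.000190 by limma) was the largest of all genes higher on RV arrays. It was -0.567 with the sign turned on all LV arrays.

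Myl3, the ventricular essential light chain, lay the other way, at -2.95 ± 0.979 (SE, adjusted p = 0.0430 by limma). Its 6 LV arrays were between 2.21 and 3.70, and its RV arrays spread from -4.14 to 4.37 around a median of -0.731, so that the RV range enclosed the LV range. The call was lost in 16 of 24 fits that left out 1 array, with differences of -2.75 to -3.14 in those fits, and turned to 2.54 with the sign turned on all LV arrays. Ckm, the muscle creatine kinase, was at -2.14 ± 0.487 and Ttn, the giant elastic protein of the sarcomere, at -1.17 ± 0.285 (adjusted p = 0.00787 and 0.0116 by limma). Ttn is the mean of up to 6 probes per array, and 3 of these had too few values to be fitted alone. The 3 others disagreed, at -2.04, 0.0834 and 0.0352. On LV arrays Ckm was at 0.715 and 2.61 (HYP), 1.94 and 1.38 (CHF) and 1.57 and 2.37 (CON), against -2.29 to 1.47 with a median of -0.832 on RV arrays. Ckm was at 1.40 and Ttn at 1.35 with the sign turned on all LV arrays. Tnni1, Ckm and Ttn were the members called of the 14 sarcomere genes tested (21.4%, against 17.9% of all genes). The median of that list was -0.332.

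**Figure D3:**
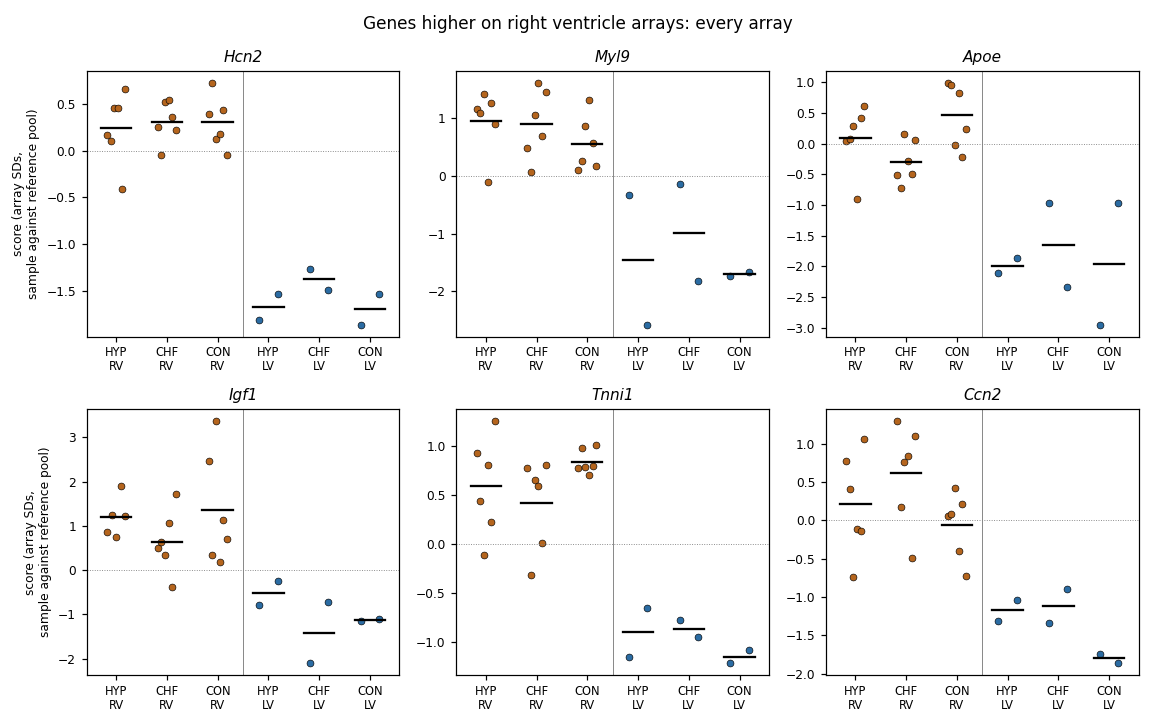
Scores in array SDs (y axis) on every array for 6 genes higher on RV arrays, by condition and ventricle (x axis), with bars at group means. For Hcn2, Tnni1, Myl9, Apoe and Ccn2 the 18 RV points lie above the 6 LV points, while for Igf1 the RV and LV ranges overlap.

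Apoe and Igf1 are secreted products of lipid transport and growth signalling. Apoe, the apolipoprotein that macrophages also secrete, ran from -0.906 through 0.0685 to 0.994 on RV arrays. The LV scores were -2.11 and -1.86 (HYP), -0.965 and -2.33 (CHF) and -2.95 and -0.960 (CON). The groups were separate, with the lowest RV array just above the highest LV array. The difference was 1.95 ± 0.278 (SE, adjusted p = 0.000190 by limma), and -1.76 with the sign turned on all LV arrays. Lpl, the lipase that frees fatty acids from circulating lipoproteins, was the other gene called of 9 in the lipid transport list (22.2%, against 17.9% of all genes). It was at -2.78 ± 0.705 on 13 RV and 6 LV arrays (adjusted p = 0.0162 by limma). The Lpl call was lost without LV array HYP 5 (-2.16) or CON 21 (-2.49), and the difference was 0.972 with all LV signs turned.

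Igf1, the growth factor whose receptor drives hypertrophic growth, ran from -0.380 through 0.873 to 3.37 on 17 RV arrays. On LV arrays it was at -0.798 and -0.246 (HYP), -2.10 and -0.730 (CHF) and -1.14 and -1.11 (CON). The highest LV array lay above the lowest RV array, so the ranges overlapped. The difference was 2.09 ± 0.387 (SE, adjusted p = 0.00225 by limma), and 0.0603 with the sign turned on all LV arrays. Igf1 was the gene called among 15 tested of its pathway (receptors, binding proteins and substrates), whose median was 0.207. That share was 6.67%, against 17.9% of all genes.

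Genes of the extracellular matrix were called on both sides. Ccn2, a matricellular protein induced by transforming growth factor beta, ran from -0.741 through 0.194 to 1.30 on RV arrays. Its LV scores were -1.31 and -1.03 (HYP), -1.33 and -0.900 (CHF) and -1.74 and -1.86 (CON), with no overlap. The difference was 1.62 ± 0.261 (SE, adjusted p = 0.000741 by limma), with 1.38 in HYP, 1.73 in CHF and 1.74 in CON, and -1.10 with the sign turned on all LV arrays. Mgp, matrix Gla protein, an inhibitor of calcification, was at 1.34 ± 0.289. Sparc, a collagen-binding matricellular protein, lay the other way, at -1.19 ± 0.251 and at 0.0482 and 1.28 with the sign turned on 5 and on all LV arrays. In the matrix list 5 of 18 genes (27.8%, against 11.4% of all genes) were called on the RV side. Another 4 (22.2%, against 6.53%) were called on the LV side, and the list median was 0.201.

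The 10 fibroblast marker genes tested had a list median of 0.416. Of these, 4 (40%, against 11.4% of all genes) were called, all higher on RV arrays. They were S100a4 (1.66 ± 0.306), a calcium-binding protein, Mgp, Vim (1.16 ± 0.292), the intermediate filament of mesenchymal cells, and Lum (1.10 ± 0.318), a collagen-bound proteoglycan. The mean of the fibroblast markers on an array was -0.393 to 0.959 for RV arrays, with a median of 0.513, and -0.364 to 0.0300 for LV arrays. Lum lost its call without LV array HYP 3 (0.861), CHF 9 (1.06), CON 21 (1.09) or CON 22 (1.12), and Vim without CHF 9 (1.01) or CON 22 (1.10). The 8 smooth muscle and pericyte markers had a list median of 0.247, and 3 of the 8 were below 0, the lowest at -0.957. Of the list, 3 were called (37.5%, against 11.4% of all genes), all on the RV side. These were Myl9, Vim and Acta2, smooth muscle actin (0.583 ± 0.197). Myl9 was given with the comparison from earlier work on these data and Vim is also counted above, so that share is a description. The Acta2 call was lost in 16 of 24 fits that left out 1 array, at 0.458 to 0.709. Its difference was 1.18 in HYP, 1.09 in CHF and -0.520 in CON, and its 3 probes disagreed, at 0.677, 0.00700 and 1.07. Of 5 macrophage markers, Apoe and C1qb, a complement subunit (0.793 ± 0.274), were called on the RV side (40%, against 11.4% of all genes). Apoe too was given with the comparison, so this share is likewise a description. The list median was 0.793, and 2 of the 5 were below 0, the lowest at -0.575. C1qb lost its call in 17 of 24 fits that left out 1 array, at 0.657 to 0.930. Turning all LV signs put S100a4 at -0.253, Lum at -0.170, Acta2 at -1.13 and C1qb at -1.27. In bulk tissue, fewer cells of a type and less RNA per cell cannot be told apart.

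Markers of other cells showed no common direction. Endothelial markers were called in 2 of 6 cases (33.3%, against 6.53% of all genes), both on the LV side. Cldn5, a tight junction protein, was at -1.58 ± 0.460 on 12 RV and 5 LV arrays. Fabp4, a fatty acid carrier of capillary endothelium and fat, was at -1.14 ± 0.374. Cldn5 lost its call without LV array HYP 5 (-1.39), CHF 9 (-1.55), CHF 15 (-1.61) or CON 22 (-1.58). Fabp4 lost it in 10 of 24 fits that left out 1 array, at -1.05 to -1.21. Of 11 nerve and Schwann cell markers, Pmp22, a myelin protein, was called on the RV side (1.08 ± 0.256). That was 9.09%, against 11.4% of all genes. Fat cell markers gave Lep, the hormone leptin, on the RV side (0.757 ± 0.221), and Lpl and Fabp4 on the LV side, of 6. These were 16.7% on the RV side and 33.3% on the LV side, against 11.4% and 6.53% of all genes. Lep lost its call without LV array HYP 3 (0.677), CHF 9 (0.607), CON 21 (0.784) or CON 22 (0.730). None of 4 mast cell markers and not the single lymphocyte marker tested was called. Of 2 lung markers, 1 (50%, against 6.53% of all genes) was called on the LV side, the surfactant protein Sftpd (-0.980 ± 0.254). Sftpd lost its call without LV array CON 22 (-0.740). Skeletal muscle markers gave Tnni1 alone, of 8 (12.5%, against 11.4% of all genes on the RV side). Of 8 markers of plasma and liver, 1 was called on each side (12.5% each, against 11.4% on the RV side and 6.53% on the LV side of all genes). Fga, the fibrinogen alpha chain, was higher on RV arrays (1.71 ± 0.253) with no overlap. Tat, a liver aminotransferase, was higher on LV arrays (-2.13 ± 0.679, 14 RV and 5 LV arrays). The Tat call was lost in 10 of 23 fits that left out 1 array, at -1.72 to -2.37.

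**Figure D4:**
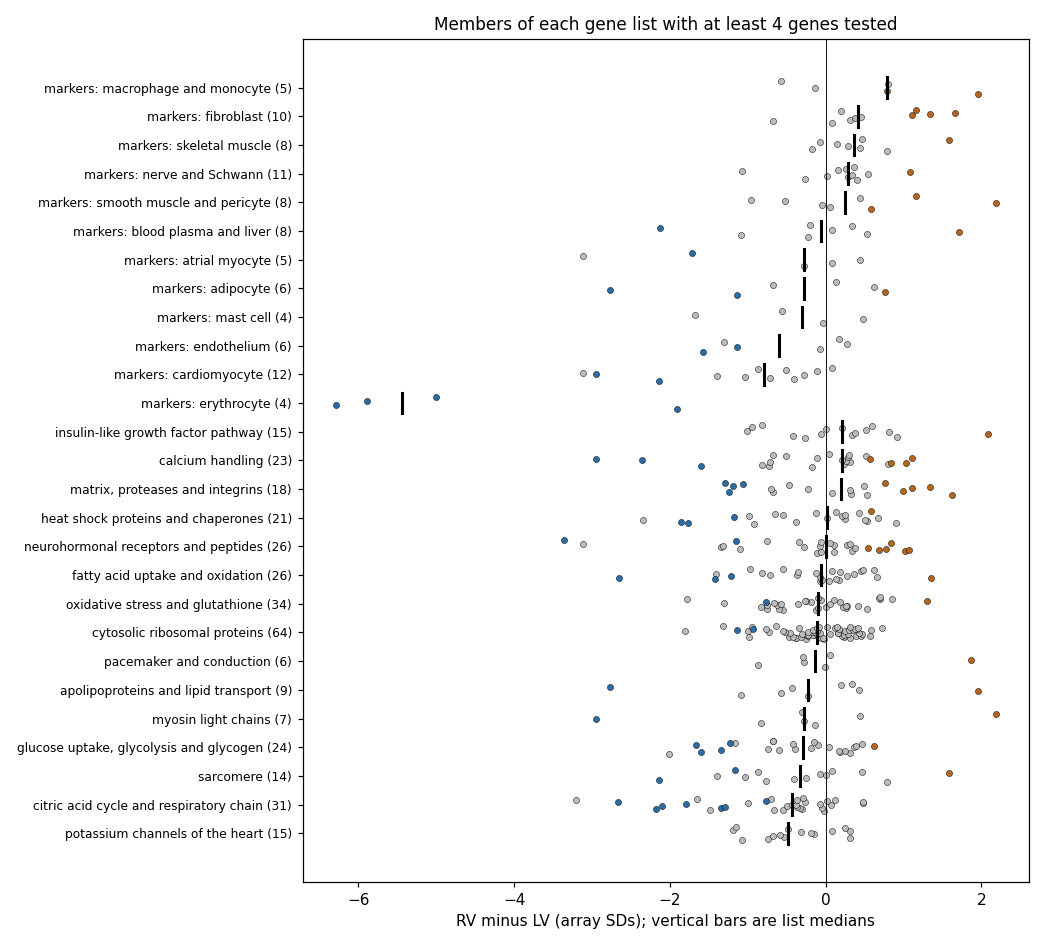
RV minus LV differences in array SDs (x axis) of the tested members of each gene list with at least 4 genes (y axis, number tested in brackets), coloured by call, with bars at list medians. The erythrocyte list lies lowest at -5.44, and the cardiomyocyte list is at -0.792.

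Genes of mitochondrial energy production were called on the LV side. Of 31 genes of the citric acid cycle and respiratory chain, 7 (22.6%) were called, all higher on LV arrays, against 6.53% of all genes. Of the 31 differences 26 were below 0, against 1144 of all 2375 genes, with a median of -0.431. Cox6a2, the muscle form of a cytochrome c oxidase subunit, ran from -2.02 through -0.598 to 0.822 on RV arrays. Its LV scores were 1.75 and 0.503 (HYP), 1.76 and 1.74 (CHF) and 1.05 and 1.01 (CON), so HYP LV array 5 alone lay within the RV range. The difference was -1.79 ± 0.340 (SE, adjusted p = 0.00239 by limma). Atp5mc1, a subunit of the ATP synthase ring, was at -2.18 ± 0.487, and Idh3g, a subunit of NAD-dependent isocitrate dehydrogenase, at -2.66 ± 0.632. The list median became 1.44 when all LV signs were turned, and Cox6a2, Atp5mc1 and Idh3g were at 0.823, 0.157 and 0.398. It became 0.185 with the sign turned on 5 arrays, and no member was called. Slc25a11, the mitochondrial oxoglutarate carrier, was outside the list and at -1.01 ± 0.214 (adjusted p = 0.00547 by limma). It kept its sign under both turnings, at -0.705 and -0.508.

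The enzymes that feed the mitochondrion were split. In fatty acid oxidation, Cpt1a, the liver type of the carnitine palmitoyltransferase that admits long chains, was higher on RV arrays (1.36 ± 0.279, 12 RV arrays). Cpt1b, the muscle type of the same enzyme, was higher on LV arrays (-2.65 ± 0.737, 13 RV arrays), as was Acadvl, the first dehydrogenase of the oxidation spiral (-1.42 ± 0.393). Cpt1b and Acadvl each lost their call without LV array HYP 3 (-2.30 and -1.32), CHF 9 (-2.53 and -1.43), CON 21 (-2.62 and -1.35) or CON 22 (-2.68 and -1.49). The list of 26 genes had 1 call on the RV side (3.85%, against 11.4% of all genes) and 3 on the LV side (11.5%, against 6.53%). Its median of -0.0596 became 0.110 with uncentred scores. Cpt1a was at -0.296 with the sign turned on all LV arrays, while Cpt1b stayed at -1.95.

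In glucose use, Pygm, the muscle glycogen phosphorylase, was higher on LV arrays (-1.23 ± 0.263), as was the glycolytic enzyme Gapdh (-1.61 ± 0.486). Pfkp, the platelet type of phosphofructokinase, was higher on RV arrays (0.617 ± 0.160). The Gapdh call was lost without any 1 LV array but CHF 15, at -1.43 to -1.72, and the Pfkp call without LV array HYP 5 (0.506), CHF 9 (0.575) or CON 22 (0.552). Gapdh probes differed, at -2.35 and -0.864. The list of 24 genes gave 1 call on the RV side (4.17%, against 11.4% of all genes) and 4 on the LV side (16.7%, against 6.53%). Its median was -0.287. Under the turning of all LV arrays Pygm was at 0.579, Gapdh at 1.02 and Pfkp at -0.737.

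The cardiomyocyte marker level also differed between the ventricles. The mean of the 12 cardiomyocyte markers tested was 0.635 to 1.47 on LV arrays, and -2.15 to 1.31 with a median of -0.0604 on RV arrays, where it was below 0 on 9 of 18. On 4 RV arrays it reached the lowest LV level. The list median was -0.792 and 11 of 12 differences were below 0. Only Ckm and Myl3 were called (16.7%, against 6.53% of all genes on the LV side). Turning the sign on all LV arrays made the list median 0.965, with 5 members called on the RV side and 1 on the LV side, and turning it on 5 arrays made it -0.166. Nppa, which encodes the atrial natriuretic peptide and is induced in loaded ventricle, was at -3.12 ± 1.20 on 12 RV arrays (adjusted p = 0.0798 by limma). Without CHF RV arrays 10 and 14 it was at -4.83, where CHF RV array 11 alone, at -5.52, made up its group. Myh6, the alpha myosin heavy chain of the adult rat ventricle, was at -1.40 ± 0.520 (adjusted p = 0.0651 by limma). The same omission put Myh6 at -1.78 (adjusted p = 0.00494 by limma). That omission was chosen after the data were seen, and arrays 10 and 14 resembled the LV arrays. Both larger differences are therefore a description. Of 5 atrial markers tested, 1 (20%, against 6.53% of all genes) was called on the LV side. This was Pam, a peptide-amidating enzyme of atrial granules (-1.72 ± 0.547). Pam lost that call in 12 of 24 fits that left out 1 array, at -1.59 to -1.84. The part of the myocyte level in the energy genes was not tested.

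**Figure D5:**
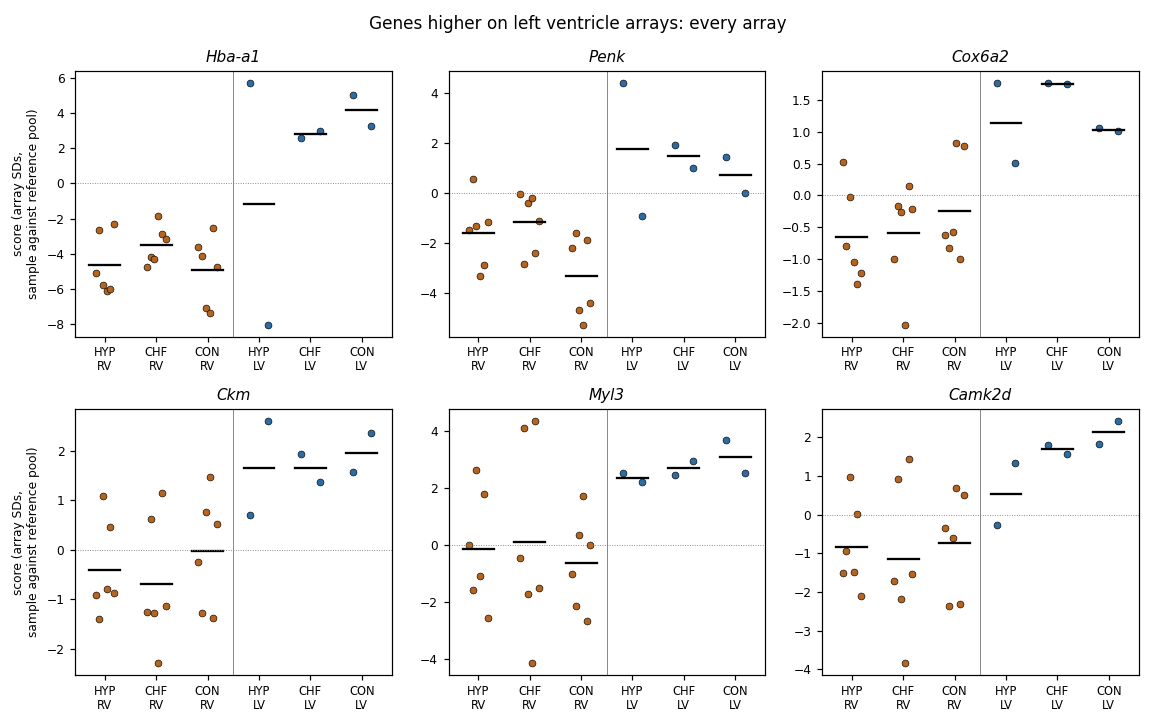
Scores in array SDs (y axis) on every array for 6 genes higher on LV arrays, by condition and ventricle (x axis), with bars at group means. For Hba-a1, 5 LV arrays lie between 2.60 and 5.72 and HYP LV array 5 lies at -8.04, below all RV arrays.

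In calcium handling, Atp2a2, the calcium pump of the sarcoplasmic reticulum, was higher on LV arrays, at -1.60 ± 0.411 on 18 RV and 5 LV arrays. Camk2d, the main cardiac calmodulin kinase, was likewise higher there, at -2.36 ± 0.620. Fkbp1b, which binds and stabilises the ryanodine receptor, was higher on RV arrays, at 0.566 ± 0.145. In all, 4 of 23 tested genes (17.4%, against 11.4% of all genes) were called on the RV side and 3 (13%, against 6.53%) on the LV side, with a median of 0.205. The Atp2a2 call was lost without LV array CON 22 (-1.36), the Camk2d call without CHF 9 (-2.32) or CON 22 (-2.27) and the Fkbp1b call without CHF 15 (0.477) or CON 21 (0.536). When all LV signs were turned these 3 genes were at 1.39, 0.560 and -0.727, and with the sign turned on 5 arrays Atp2a2 was at 0.589.

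Among 26 genes of neurohormonal signalling, 6 (23.1%, against 11.4% of all genes) were called on the RV side. On the LV side 2 (7.69%, against 6.53%) were called, and the list median was 0.00328. Npr2, the receptor of C-type natriuretic peptide, ran from -0.659 to 0.530 on RV arrays and from -1.05 to -0.693 on LV arrays. Its groups were separate, and the difference was 0.836 ± 0.176 (SE, adjusted p = 0.00539 by limma), against -0.964 with the sign turned on all LV arrays. On the LV side were Penk, the precursor of the enkephalins, which heart muscle makes in quantity, and Oprd1, the delta opioid receptor that enkephalins bind. Penk was at 4.42 and -0.912 (HYP), 1.95 and 1.03 (CHF) and 1.47 and 0.0100 (CON) on LV arrays, against -5.27 to 0.562 with a median of -1.74 on RV arrays. Its difference was -3.36 ± 0.688 (adjusted p = 0.00435 by limma), and its deviations from the group means followed those of Hba-a1 over the arrays with a Pearson r of 0.774, given as a description. Oprd1 was at -1.16 ± 0.270, and at 1.17 with the sign turned on all LV arrays.

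Haemoglobin genes were among the genes with the largest differences. Hba-a1, alpha globin, was between -7.35 and -1.83 on every RV array, with a median of -4.24. On the LV arrays it was at 5.72 and -8.04 (HYP), 2.60 and 2.98 (CHF) and 5.02 and 3.28 (CON). So 5 LV arrays lay above all RV arrays and HYP LV array 5 below them all. The difference was -6.29 ± 1.18 (SE, adjusted p = 0.00225 by limma), and -8.59 without HYP LV array 5. The beta globins Hbb-b1 and Hbb were at -5.0 ± 0.850 and -5.89 ± 1.22, and Alas2, the first enzyme of haem synthesis in red cell precursors, at -1.91 ± 0.611. All 4 erythrocyte markers tested were thus called higher on LV arrays (100%, against 6.53% of all genes). Alas2 lost its call in 11 of 24 fits that left out 1 array, at -1.65 to -2.02. The mean of the 4 markers was -4.84 to -0.740 on RV arrays, -4.68 on HYP LV array 5 and 2.04 to 4.23 on the other 5 LV arrays. When 5 signs were turned Hba-a1 was at -1.87, and when all LV signs were turned Hba-a1, Hbb, Hbb-b1 and Alas2 were at -2.43, -1.78, -0.116 and -0.0554, with no call in either case. Tap2, annotated as a peptide transporter of antigen presentation, was at -5.45 ± 0.934 on 16 RV and 6 LV arrays, with scores of 4.84 and -5.89 (HYP), 2.04 and 2.36 (CHF) and 3.97 and 2.55 (CON) on LV arrays. The deviations of Tap2 correlated with those of Hba-a1 at a Pearson r of 0.958, which rests largely on the 2 HYP LV arrays. Blood content was not measured apart from these genes, and its part in other differences was not tested.

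Of 155 genes called on the LV side, 9 had deviations that correlated with those of Hba-a1 above 0.5. Of all 2375 genes tested 212 did, which is a larger share. These correlations too weigh the 2 HYP LV arrays most. The remaining genes with the smallest p on the LV side were Slc5a2 and Pde4dip. Slc5a2, annotated as the renal sodium-glucose transporter, was at -3.05 ± 0.587, and Pde4dip, a scaffold of phosphodiesterase 4 known as myomegalin, at -1.07 ± 0.220. They were at 0.165 and 1.82 with all LV signs turned, and with the sign turned on 5 arrays Pde4dip was at 0.607.

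Of 21 chaperone genes, the small heat shock proteins Cryab (-1.77 ± 0.532) and Hspb6 (-1.18 ± 0.358), both abundant in muscle, were among 3 (14.3%) higher on LV arrays, against 6.53% of all genes. Serpinh1, the collagen chaperone of the endoplasmic reticulum, was higher on RV arrays (0.580 ± 0.177). The Cryab call was lost without LV array HYP 3 (-1.54), CHF 9 (-1.67), CON 21 (-1.67) or CON 22 (-1.87), and the Hspb6 call without any 1 LV array but HYP 5 (-0.900 to -1.33). The Serpinh1 call was lost without LV array HYP 5 (0.509), CHF 9 (0.541), CON 21 (0.656) or CON 22 (0.503). Of 34 genes against oxidative stress, Prdx4, a peroxiredoxin of the secretory pathway, was higher on RV arrays (1.30 ± 0.280), and Prdx1, its cytosolic relative, on LV arrays (-0.772 ± 0.258). The Prdx1 call was lost in 11 of 24 fits that left out 1 array, at -0.606 to -0.908. Prdx4 and Prdx1 were the 2 genes called of that list (5.88%, against 17.9% of all genes). Of 64 ribosomal protein genes, Rps19 (-0.931 ± 0.291) and Rps14 (-1.13 ± 0.360) were called, both on the LV side (3.12%, against 6.53% of all genes). The list median of -0.115 became 0.0491 with uncentred scores and 0.182 with the sign turned on 5 arrays. Turning the sign on all LV arrays made it 0.824, with 31 members called on the RV side and 2 on the LV side. Leaving out CHF RV arrays 10 and 14 gave 5 and 9 calls. The Rps19 call was lost without any 1 LV array but HYP 5 (-0.719 to -0.958), and the Rps14 call in 8 of 24 fits that left out 1 array (-1.07 to -1.20). Under the turning of all LV arrays, Cryab was at 0.873, Hspb6 at 1.43, Rps19 at 0.0970 and Rps14 at 0.219.

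The other genes with the smallest p on the RV side have no list in common. Gpx5, annotated as the glutathione peroxidase of the epididymis, ran from 0.204 to 1.72 on RV arrays and from -1.08 to -0.0930 on LV arrays, with no overlap and a difference of 1.41 ± 0.191 (SE, adjusted p = 0.000168 by limma). Msn, moesin, which links actin to the membrane in non-muscle cells, was separate too, at 1.04 ± 0.151. Gng8, a G protein gamma subunit, was at 1.45 ± 0.202, and Anxa1, a phospholipid-binding mediator of the glucocorticoid response, at 1.13 ± 0.162, both with overlap. In Anxa1 the difference was 1.52 in HYP, 1.36 in CHF and 0.501 in CON. When all LV signs were turned, Gpx5 stayed above 0, at 0.377, while Gng8, Anxa1, Msn and Fga were at -0.245, -0.390, -0.237 and -0.464.

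The ventricle difference had the same sign in HYP, CHF and CON for 420 of the 426 genes called (98.6%), against 1450 of all 2375 (61.1%). The average over conditions chose the 426, so the first share is a description. For genes called on the RV side the median difference was 0.715 in HYP, 0.948 in CHF and 1.05 in CON, and for those called on the LV side it was -1.04, -1.46 and -1.27. A test of whether the ventricle difference itself varied between conditions called 0 of 2375 genes (0%) by limma, and 45 (1.89%) had an unadjusted p below 0.05. With 2 LV arrays per condition, the SE of a difference within 1 condition was large, and this count does not show that the differences were equal. The genes with the smallest p in that test were Tpm3, Bdkrb1 and Maoa. Tpm3, a slow muscle and cytoskeletal tropomyosin, had a difference of 2.26 in HYP, 1.61 in CHF and -1.22 in CON. Bdkrb1, the inducible bradykinin receptor, had 1.39, 1.33 and -1.60, and Maoa, the monoamine oxidase that degrades noradrenaline, had 1.90, 1.76 and -2.83. All 3 genes thus had RV above LV in HYP and CHF and below it in CON. All 3 passed the threshold when the test was confined to the 1447 genes with a value on all 24 arrays (adjusted p = 0.0479 by limma) and without CHF LV array 9 (adjusted p = 0.0156 by limma). Tpm3 and Bdkrb1 also passed it with the sign turned on 5 arrays (adjusted p = 0.00347 and 0.0371 by limma). Averaged over conditions Tpm3 was called at 0.881 ± 0.291, a call lost in 11 of 24 fits that left out 1 array, at 0.587 to 0.948. Tpm3 was at -2.17 and Bdkrb1 at -1.35 with all LV signs turned.

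The 250 bases before the annotated start of 2 genes from each side are shown, so that the motifs counted in the next paragraph can be seen in genes described above. They come from RefSeq promoters of the GRCr8 assembly, 5′ to 3′ on the gene's strand, with capitals marking motifs found by search on both strands. The letters searched were TATAAA of the TATA box, then GGGCGG, the core of the Sp1 site, then CCAAT of the site named after it, and CAGCTG, an E-box that myogenic factors bind. The CArG box and the MEF2 site were searched too.
Hcn2, chr7:10639458-10639707, minus strand: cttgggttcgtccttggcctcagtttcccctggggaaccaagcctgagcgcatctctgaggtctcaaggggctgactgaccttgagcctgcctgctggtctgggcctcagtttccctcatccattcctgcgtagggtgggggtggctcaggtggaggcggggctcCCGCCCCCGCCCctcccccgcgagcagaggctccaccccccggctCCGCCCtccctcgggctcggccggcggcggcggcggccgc
Ccn2, chr1:22624615-22624864, minus strand: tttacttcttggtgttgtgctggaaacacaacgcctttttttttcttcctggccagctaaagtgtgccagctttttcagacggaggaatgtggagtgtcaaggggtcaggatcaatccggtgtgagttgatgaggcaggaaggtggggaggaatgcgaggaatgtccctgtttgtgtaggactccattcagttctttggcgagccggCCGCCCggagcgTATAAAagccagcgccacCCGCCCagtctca
Ckm, chr1:88189211-88189460, plus strand: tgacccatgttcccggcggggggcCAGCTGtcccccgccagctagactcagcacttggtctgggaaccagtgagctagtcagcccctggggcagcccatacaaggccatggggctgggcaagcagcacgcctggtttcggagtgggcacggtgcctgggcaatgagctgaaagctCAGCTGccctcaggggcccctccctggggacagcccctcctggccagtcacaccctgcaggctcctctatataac
Cox6a2, chr1:192219717-192219966, minus strand: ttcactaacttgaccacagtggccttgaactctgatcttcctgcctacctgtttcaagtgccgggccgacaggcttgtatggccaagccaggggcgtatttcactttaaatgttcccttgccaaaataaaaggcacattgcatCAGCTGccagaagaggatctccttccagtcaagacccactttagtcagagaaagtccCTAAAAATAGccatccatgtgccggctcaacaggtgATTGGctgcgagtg
Hcn2 held 3 copies of GGGCGG on the reverse strand, the nearest ending 35 bases before the start, with no TATAAA. Ccn2 held TATAAA from base -31 to -26 and 2 copies of GGGCGG on the reverse strand. Ckm held CAGCTG at -226 to -221 and at -75 to -70. Cox6a2 held CAGCTG at -107 to -102, a MEF2 site at -50 to -41 and, on the reverse strand, CCAAT at -14 to -10. A match is a description of letters and not a measured binding site.

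Over all called genes with RefSeq promoters the motif shares were close to those of all genes tested. A gene counted as holding a motif when any of its promoters held it. Of 1969 tested genes matched, 57.6% held GGGCGG, against 57.1% of 226 higher on RV arrays and 58.5% of 135 higher on LV arrays. TATAAA was in 11.2%, 11.5% and 11.9%, CCAAT in 37.1%, 38.9% and 37% and CAGCTG in 14.3%, 14.6% and 14.1%. The MEF2 site was in 0.863%, 0.442% and 1.48%, and the CArG box in 1.57%, 1.33% and 1.48%. Among all 27457 genes with RefSeq promoters the shares were 33.5% for GGGCGG, 14.1% for TATAAA and 36.1% for CCAAT. They were 12.9% for CAGCTG, 0.601% for the MEF2 site and 1.62% for the CArG box.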

How the data were processed

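RNA of 24 rat ventricle samples was measured on 2-colour arrays against a reference pool. The authors deposited scores of unstated scale, read from their means and SDs as standardised within each array. For scanner, background correction, dyes, normalization and genome build, nothing is given in the sources used here. An array held 2162 to 3658 values of 4803 probes, and the scores carry no signal over background, so the number of arrays limits the precision.

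Each array was centred on its median, and probes of 1 gene symbol (4278 probes) were averaged. The 2375 genes were fitted in 6 groups of condition and ventricle (R 4.3.3, limma 3.58.1, functions lmFit and squeezeVar). Contrasts and their SEs were computed for each gene from its number of values per group. They were tested with a t test and, for variation between conditions, an F test. Alternative fits with no interaction or with a block used eBayes. A missing value was left missing. P-values were Benjamini-Hochberg adjusted over all genes, with a threshold of 0.05. The fit was tested on simulated data with independent noise for each gene and array. Such data lack the correlations seen between the real arrays, so that test does not cover them. RV and LV labels share 6 sample numbers. The deviations of same-numbered arrays correlated above 0.1 for 3 of them, which fell short of the rule that every pair do so, and the fit has no block.

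Genes named were Hcn2, Myl9, Apoe and Igf1, the 10 with the smallest p in each direction, up to 3 called per pathway list (or the 1 with the smallest p), 3 for the variation between conditions, and called cell type markers with Nppa and Myh6. The members and the 30 lists were chosen with earlier results of these data known.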

Additional observations from a re-analysis of the deposited data

Results flagged for a closer look

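Within the 6-array RV groups (fewer where a value was missing), 17 of 195 sets of gene and group held 1 array whose gap to its nearest neighbour was large for the range of the set, and chance gives about 1 in 20. CHF RV array 12 was low in 4 genes, with Cryab at -4.33, Hspb6 at -2.13, Fabp4 at -2.63 and Prdx1 at -1.88. HYP RV array 1 stood apart in Fkbp1b at -0.139, in Cldn5 at 0.958 and in Kcne1 at 0.164. Cpt1b held 1 such array in each condition, HYP 6 at -0.549, CHF 10 at 0.0410 and CON 18 at -3.34, with 4 or 5 values per group. Pde4dip did so on HYP array 6 at 1.32 and CON array 19 at 1.51. The others were Myl9 on HYP array 5 at -0.0990, Vim on HYP array 4 at -0.806, Msn on CON array 20 at 1.02, Cldn5 on CON array 20 at -0.634 and Sftpd on CON array 22 at 0.447.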

How the results depend on the processing

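The 426 calls became 0 with the sign turned on 5 arrays, 44 with those arrays left out (40 shared), 7 without the LV arrays of 2 decimals, 777 over the 12 arrays of shared numbers, 993 with array weights, and, in settings chosen after seeing the data, 797 without CHF RV arrays 10 and 14, 934 without these and HYP RV array 4, 748 with only the sign of CHF RV 10 and 14 turned and 777 with the sign turned on all LV arrays. The fits behind the counts of 44 and 7 had no CON LV array and no interaction. On all arrays the fit with no interaction gave 455 calls. Leaving out 1 array gave 143 to 622 calls. With the replicate block (number shared by RV and LV) there were 929 calls, 371 of them shared, but the deviations of same-numbered arrays correlated from -0.282 to 0.405, and 3 of 6 LV arrays correlated best with their own number. The 0 calls for variation between conditions became 3 over genes with a value on all arrays, 1 with unnamed probes kept, 15 with 5 signs turned, 1 with all LV signs turned and 0 to 7 without 1 array (7 without CHF LV array 9, 2 without HYP LV array 3). The cause was not tested. Other scalings, filters and fits kept the count within 1.5 times, at 364 to 517.

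Of 60 named genes called, 58 kept their call with uncentred scores, 60 with scaled arrays and 57 with the block, and 0 turned sign. With 5 signs turned, 9 had the other sign: Pde4dip 0.607, Sparc 0.0482, Atp2a2 0.589, Pfkp -0.190, Lep -0.261, Hspb6 0.0293, Tpm3 -0.0155, Acta2 -0.0399 and C1qb -0.0285. With all LV signs turned, genes higher on RV arrays went to Hcn2 -1.29, Tnni1 -0.337, Gng8 -0.245, Apoe -1.76, Myl9 -0.567, Anxa1 -0.390, Msn -0.237, Fga -0.464, Ccn2 -1.10, S100a4 -0.253, Npr2 -0.964, Cpt1a -0.296, Fkbp1b -0.727, Pfkp -0.737, Lum -0.170, Lep -0.927, Tpm3 -2.17, Acta2 -1.13, C1qb -1.27 and Bdkrb1 -1.35 (not called before). Those higher on LV arrays went to Cox6a2 0.823, Slc5a2 0.165, Pde4dip 1.82, Sparc 1.28, Pygm 0.579, Atp5mc1 0.157, Ckm 1.40, Oprd1 1.17, Idh3g 0.398, Ttn 1.35, Atp2a2 1.39, Camk2d 0.560, Lpl 0.972, Cryab 0.873, Gapdh 1.02, Hspb6 1.43, Cldn5 0.0612, Rps19 0.0970, Rps14 0.219, Fabp4 1.52, Tat 0.278 and Myl3 2.54.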
